A study of Mus musculus with 6 samples.

Results

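The genes described here are 10 CC chemokine ligands, Ccl2, Ccl3, Ccl4, Ccl5, Ccl6, Ccl7, Ccl8, Ccl9, Ccl11 and Ccl12, taken by name from the 16557 genes listed for at least 1 of 6 mouse rhabdoid tumors. Among named cell classes, by the median over tumors, Ccl9 was highest in osteoclast-like cells and Ccl8 and Ccl12 in macrophage-like cells. Ccl5 was highest in mature dendritic-like, T cell-like and NK-like cells. Ccl3 and Ccl4 reached their highest levels in the neutrophil-like cells of 1 tumor. Smarcb1-negative tumor cells held Ccl2 and Ccl5 in several tumors, and Ccl11 was found in the tumor cells of 1 tumor. The tables of 5 tumors list 9 of the 10 genes, and the table of the sixth lists all 10, since a gene found in fewer than 3 cells of a tumor was left out of its table. Such a gene counts as 0 here.

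CC chemokines are small secreted proteins that bind receptors coupled to G proteins and guide the movement of leukocytes. Ccl2, Ccl7 and Ccl12 are ligands of Ccr2 and draw monocytes out of the blood, and Ccl11 is an eosinophil attractant that acts through Ccr3. In tumors they are made by infiltrating myeloid cells and lymphocytes, and by malignant or stromal cells.

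Single cells were taken from 3 MYC spinal tumors, called MYC spinal 1, 2 and 3 here, and from 3 extracranial rhabdoid tumors (eRT), with eRT 1 at a gland, eRT 2 in the jaw and eRT 3 at the shoulder. All 6 mice carried Smarcb1 fl/fl and received Cre activity through a single dose of 50 mg/kg tamoxifen given to the mother at day 6.5 of gestation, so that no tumor without Smarcb1 loss is among the groups. The MYC spinal tumors and eRT 1 came from the Rosa26-cre strain, in which a ubiquitous promoter drives the inducible Cre, and eRT 2 and 3 from the Sox2-cre strain, in which it is active where Sox2 is expressed. Age was 19, 26 and 17 weeks in MYC spinal 1, 2 and 3 and 17, 29 and 22 weeks in eRT 1, 2 and 3. Each tumor is 1 animal and 1 library, and the strain goes in part with the tumor type.

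Between 1469 and 6740 cells per tumor were kept, 22163 in all, with 3841706 to 26184224 UMIs (unique molecular identifiers, each marking 1 captured transcript) and a median of 916 to 5211 UMIs per cell. The 10 ligands held 206726 UMIs, and 15617 cells (70.5%) had at least 1 of them. Cells were named from markers, and the suffix "-like" marks a name that rests on them. Clusters that got no name held 0.545% (MYC spinal 1) to 30.9% (eRT 1) of the cells of a tumor. They are in no named class and not among the immune-like cells. Tumor cells are those of 6 clusters with 0 to 0.183 of the Smarcb1 UMIs expected from the immune-like cells of the same tumor, and number 116, 16 and 1621 in MYC spinal 1, 2 and 3 and 68, 201 and 632 in eRT 1, 2 and 3. Levels are CPM, that is the UMIs of a gene per 1000000 UMIs summed over the cells of a type in a tumor. The libraries capture the 3′ end of a transcript, so a level is set by molecules and not by transcript length. Cells carry running numbers in place of their barcodes in the tables, so barcodes shared between tumors could not be counted.

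Some classes hold other cells or transcripts. In MYC spinal 2, 12 neutrophil markers added up to 17235 CPM in the 16 tumor cells and 15813 CPM in the 160 macrophage-like cells, whose 10 macrophage markers came to 1571 CPM, against 9536 to 28529 CPM in the macrophage-like cells of the other tumors. The monocyte-like cells of eRT 1 and 3 carried 14002 and 13482 CPM of macrophage markers, and those of the other tumors 144 to 1787 CPM. The 47 monocyte-like cells of MYC spinal 1 carried 2673 CPM of T cell markers, against 10.6 to 94.2 CPM in those of the other tumors. The part these transcripts play in the results was not tested.

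All 10 genes lie on chromosome 11 and encode proteins. By the GENCODE annotation of GRCm38, Ccl2 (82035571 to 82037453), Ccl7 (82045712 to 82047525), Ccl11 (82057823 to 82062955), Ccl12 (82101845 to 82103400) and Ccl8 (82115185 to 82116799) follow each other on the plus strand over 81.2 kb. The other 5 span 138.9 kb further on, with Ccl5 (83525778 to 83530518), Ccl9 (83572919 to 83578636), Ccl6 (83587882 to 83593087) and Ccl3 (83647844 to 83649355) on the minus strand and Ccl4 (83662584 to 83664683) on the plus strand. Ccl9 and Ccl6 have 4 exons in their main transcript and the others 3. No pair overlaps in GENCODE, while RefSeq places Ccl3 and Ccl4 in overlapping spans on opposite strands.

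The promoters of neighboring genes with different levels are shown because the levels below split both groups of genes. RefSeq promoters of GRCm38.p6 were found for 5 of the 10 genes (Ccl3, Ccl6, Ccl8, Ccl9 and Ccl12), and the 250 bases before the start of 4 of them are given from 5′ to 3′, at chr11:82101595-82101844 (plus strand) for Ccl12, chr11:82114935-82115184 (plus) for Ccl8, chr11:83578637-83578886 (minus) for Ccl9 and chr11:83649379-83649628 (minus) for Ccl3. Capitals mark matches, on either strand, to TATAAA (the TATA box), GAGGAA (the core bound by PU.1), TGANTCA (AP-1) or the NF-kappaB motif.
Ccl12: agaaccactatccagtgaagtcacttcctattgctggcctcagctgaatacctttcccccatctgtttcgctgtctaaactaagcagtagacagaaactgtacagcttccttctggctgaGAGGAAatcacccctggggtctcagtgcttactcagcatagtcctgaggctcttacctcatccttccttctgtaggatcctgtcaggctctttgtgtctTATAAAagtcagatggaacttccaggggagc
Ccl8: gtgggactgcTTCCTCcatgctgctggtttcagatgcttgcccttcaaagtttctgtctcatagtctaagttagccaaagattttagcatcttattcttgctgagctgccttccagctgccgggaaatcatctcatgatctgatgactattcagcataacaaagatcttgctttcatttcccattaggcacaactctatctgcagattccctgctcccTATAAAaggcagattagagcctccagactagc
Ccl9: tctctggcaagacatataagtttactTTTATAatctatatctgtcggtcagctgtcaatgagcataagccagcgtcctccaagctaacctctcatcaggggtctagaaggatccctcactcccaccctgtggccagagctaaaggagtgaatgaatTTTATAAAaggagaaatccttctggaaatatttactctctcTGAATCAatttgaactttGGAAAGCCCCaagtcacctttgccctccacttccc
Ccl3: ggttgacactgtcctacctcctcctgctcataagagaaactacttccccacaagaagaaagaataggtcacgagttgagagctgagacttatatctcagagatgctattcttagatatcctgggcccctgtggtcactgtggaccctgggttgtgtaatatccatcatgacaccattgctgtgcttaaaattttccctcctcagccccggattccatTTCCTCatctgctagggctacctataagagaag

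The letters TATAAA stood 31 to 26 bases before the start in Ccl12 and 32 to 27 bases before it in Ccl8. In Ccl9 they stood at 92 to 87 bases, overlapped by a match on the other strand at 94 to 89, and again on the other strand at 224 to 219. GAGGAA was found in Ccl12, Ccl8 and Ccl3, and the AP-1 letters and the NF-kappaB motif in Ccl9 alone. The letters TTNNGCAA (C/EBP), the interferon-stimulated response element (ISRE) and CCAAT were in none of the 5. Among all 32851 promoters of the same length, 12.4% hold TATAAA, 23.3% GAGGAA, 6.75% TGANTCA, 7.25% the NF-kappaB motif, 9.56% the C/EBP letters, 2.98% the ISRE and 33.8% CCAAT. Ccl9 and Ccl6 shared at most a run of 13 bases, and Ccl12 and Ccl8 a run of 8.

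Over all cells, Ccl9 was the most abundant of the 10, with 60507 UMIs. It was followed by Ccl5 (31201), Ccl2 (25820), Ccl12 (25696), Ccl4 (24603), Ccl7 (15443), Ccl3 (12463), Ccl6 (7108), Ccl8 (3527) and Ccl11 (358). These sums follow the number and depth of the cells of each type, so the levels per cell type are given below.

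**Figure D1:**
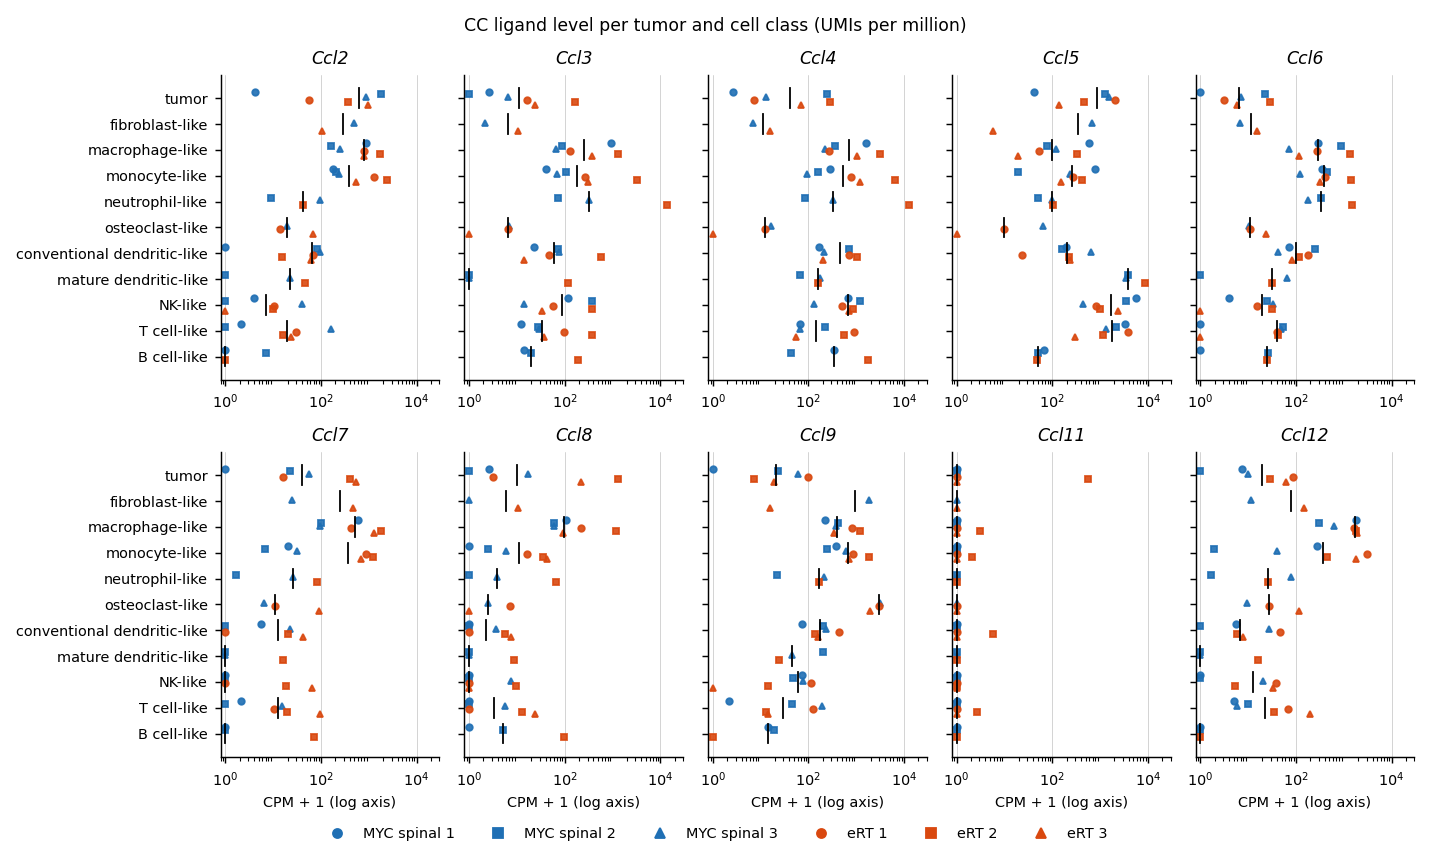
Level of each of the 10 ligands in 11 cell classes, as CPM + 1 on a log axis, with 1 point per tumor (blue for MYC spinal, orange for eRT, with circle, square and triangle for replicates 1, 2 and 3) and a black bar at the median. Ccl9 is highest in osteoclast-like cells, Ccl5 in mature dendritic-like cells, and Ccl11 has points above 0 in eRT 2 only.

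By the median over the tumors with at least 10 cells of a class, the leading classes were macrophage-like (797 CPM), tumor (632 CPM) and monocyte-like cells (384 CPM) for Ccl2, and macrophage-like (508 CPM) and monocyte-like cells (358 CPM) for Ccl7. The order was the same for Ccl12 (1710 and 359 CPM) and for Ccl8 (97.6 and 10.1 CPM, then tumor cells at 9.08 CPM). Ccl9 led in osteoclast-like cells (3028 CPM), and Ccl6 in monocyte-like (382 CPM), neutrophil-like (339 CPM) and macrophage-like cells (284 CPM). The first classes were neutrophil-like (323 CPM), macrophage-like (254 CPM) and monocyte-like cells (182 CPM) for Ccl3, and macrophage-like (691 CPM), NK-like (686 CPM) and monocyte-like cells (530.4 CPM) for Ccl4, after plasmacytoid dendritic-like cells found in 1 tumor. Ccl5 led in mature dendritic-like (3833 CPM), T cell-like (1760 CPM) and NK-like cells (1716 CPM). Ranges over tumors overlapped between neighbors in these orders, except for Ccl8 between macrophage-like and monocyte-like cells and for Ccl9 between osteoclast-like cells and all other named classes. Both exceptions end when 1 cell is left out, as given below. Unnamed clusters are outside these orders, and some were high in Ccl12. The cluster led by Lig1 and Mcm3 had a median of 1526 CPM over 3 eRT, with a range of 0 to 1696 CPM. The 46 cells led by Gdpd3 and Cebpzos in eRT 3 had 2294 CPM.

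Ccl2 (monocyte chemoattractant protein 1), Ccl7 and Ccl12 bind Ccr2, and Ccl8 is known in the mouse as a ligand of Ccr8. All 4 lie in the same group of neighboring genes. In macrophage-like cells, the Ccl12 level was 1804, 310.2 and 634 CPM in the MYC spinal tumors 1, 2 and 3 and 1626, 1794 and 1924 CPM in eRT 1, 2 and 3. Ccl2 was at 892, 165, 247, 809, 1688 and 786 CPM in the same order. Of these, the highest value of each gene lay in an eRT and the lowest in MYC spinal 2, whose macrophage-like cells were poor in macrophage markers. The Ccl12 level of MYC spinal 2 was 39.2 CPM without the cell that holds 28 of its 32 UMIs. Ccl7 ranged from 96.0 CPM (MYC spinal 3) to 1824 CPM (eRT 2), and Ccl8 from 57.8 CPM (MYC spinal 3) to 1156 CPM (eRT 2).

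Ccl8 was higher in macrophage-like than in monocyte-like cells of every tumor. In monocyte-like cells it was at 0, 1.47, 4.84, 15.4, 34.1 and 41.4 CPM, against 104, 58.2, 57.8, 213, 1156 and 90.8 CPM in macrophage-like cells. The ranges did not overlap, but this rests on few cells. The level of MYC spinal 2 comes from 6 UMIs in 1 cell, and without the cell that holds 72 of its 198 UMIs MYC spinal 3 was at 36.8 CPM, inside the monocyte-like range. On sums of UMIs per tumor with the tumor as a block, edgeR's quasi-likelihood test gave a log2 fold change of 3.72 (SE 0.51) with an adjusted p of 0.0239, higher in 6 of 6 tumors. This was 1 of the 9 ligands tested (Ccl11 did not pass the filter on low counts), while 13 of 5964 genes passed in all, or 0.218% (0.101% higher and 0.117% lower). The call was lost without the tumor block, and also without MYC spinal 2, MYC spinal 3, eRT 1 or eRT 2, with 0 ligands called in each case.

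Ccl12 differed in the same direction in 5 of 6 tumors without passing the test. Its monocyte-like level was 272, 0.981 and 40.0 CPM in the MYC spinal tumors and 2997, 445 and 1803 CPM in the eRT, with a log2 fold change of 2.21 (SE 0.88) and an adjusted p of 0.363. The monocyte-like cells of eRT 1 and 3, high in Ccl12, are those rich in macrophage markers. Ccl7 gave 1.39 (SE 0.65) and 0.446, and Ccl2 0.18 (SE 0.40) and 0.914, by the same test. Over the 9 ligands the median log2 fold change was 0.18, and over all genes tested -0.01.

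The macrophage-like cells of the eRT fell into clusters that differed in these ligands. One was led by Fcrls and Cbr2, with Folr2 and Mrc1 among its top genes, and the other by the class II genes H2-Eb1 and H2-Ab1. Ccl8 was at 502, 2296 and 258 CPM in the Fcrls cluster of eRT 1, 2 and 3, and at 13.3, 59.2 and 5.76 CPM in the class II cluster. Ccl7 was at 772, 3369 and 3153 CPM in the Fcrls cluster against 182, 338 and 333 CPM. For both genes the clusters did not overlap. Ccl2 (921, 2779 and 1654 against 731, 639 and 345 CPM) and Ccl12 (1826, 3285 and 4034 against 1488, 359 and 853 CPM) were higher in the Fcrls cluster of each tumor, by less in eRT 1. So were Ccl3 (178, 1473 and 743 against 94.6, 1078 and 196 CPM) and Ccl4 (341, 4063 and 1898 against 218, 2191 and 581 CPM). Ccl5, Ccl6 and Ccl9 had no common direction over the 3 tumors. The clusters were found on the same cells, with the CC ligands and receptors left out of the genes used, so these values are a description and were not tested.

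**Figure D2:**
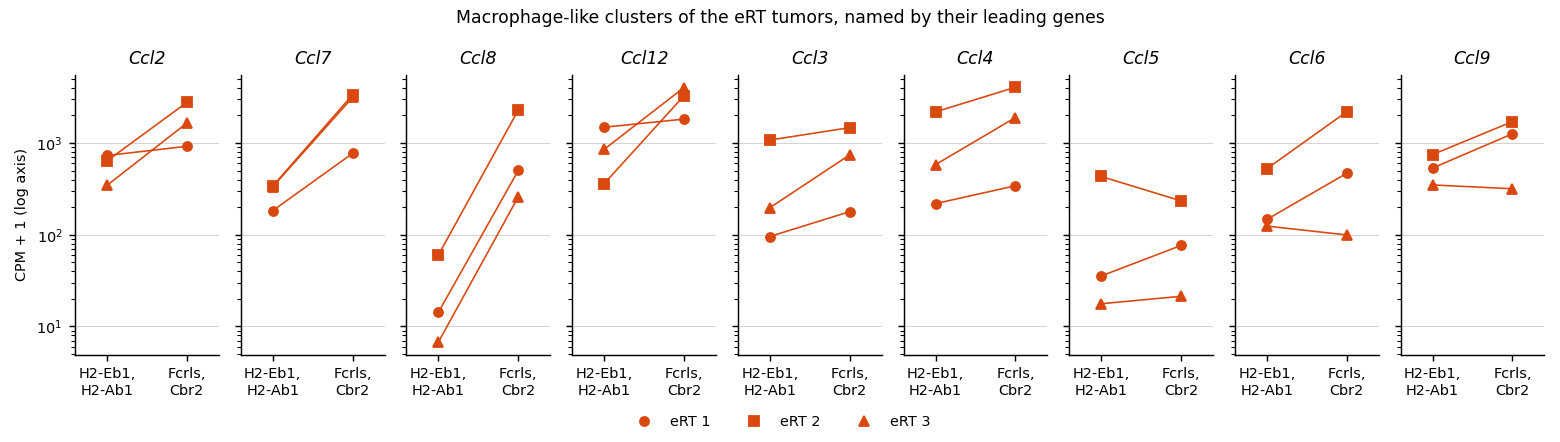
CPM + 1 (log axis) of 9 ligands in macrophage-like cells of eRT 1, 2 and 3, in the cluster led by H2-Eb1 and H2-Ab1 and in that led by Fcrls and Cbr2. Ccl2, Ccl7, Ccl8, Ccl12, Ccl3 and Ccl4 are higher in the Fcrls cluster of all 3 tumors, and Ccl5, Ccl6 and Ccl9 are not.

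Monocyte-like clusters of the eRT differed in Ccl12 and Ccl7, and those of the MYC spinal tumors in Ccl2 and Ccl6. A cluster of eRT cells led by the interferon-induced genes Rsad2 and Cxcl10 held 5002, 2004 and 3641 CPM of Ccl12 in eRT 1, 2 and 3, and the cluster led by Thbs1 and Cxcl3 held 318, 74.9 and 346 CPM. Ccl7 followed the same order, with 1077, 3649 and 1097 CPM against 592, 645 and 368 CPM. In the MYC spinal tumors, Ccl2 was at 592, 302 and 430.2 CPM in the monocyte-like cluster led by Wfdc17 and F13a1 and at 0, 155 and 71.2 CPM in the dividing cluster led by Mki67. The first of these held more Ccl2 in each of the 3 tumors. It also held more Ccl6, at 1184, 1014 and 228 CPM against 0, 170 and 31.2 CPM. In MYC spinal 1 the Mki67 cluster made up 27 of the 47 monocyte-like cells and held 704 CPM of Ccl5. The monocyte-like cells of that tumor carried 2673 CPM of T cell markers. Whether its Mki67 cluster holds monocytes was not tested.

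Shares of cells with a UMI gave the same picture. Ccl2 was found in 43.4% (95% interval 41.3 to 45.5%) of macrophage-like cells of eRT 3, at a median of 2121 UMIs per cell, and in 0% of its 26 NK-like cells, at a median of 1113. With each cell thinned to 500 UMIs, the share in macrophage-like cells was 22.5%, with 0 cells left out. For Ccl12 the shares were 53.6% in macrophage-like and 3.85% in NK-like cells, and 35.3% in thinned macrophage-like cells. The NK-like share counts as background for a gene that these cells are not known to make. Intervals cover counting error only.

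Ccl7 and Ccl2 were often found in the same cells. Among macrophage-like cells of eRT 3, 575 had both, and 71.0% of the 810 cells with Ccl7 had Ccl2, against 27.9% of the others. Median depth was 2050 UMIs in cells with Ccl2 and 2167 in those without. Ccl12 was found in 75.7% of the cells with Ccl7 and 41.2% of the others.

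Ccl11 (eotaxin) was listed in the table of eRT 2 alone and was not tested, since it did not pass the filter. It had 354 UMIs in 28 of 201 tumor cells there, 13.9% (95% interval 9.46 to 19.5%), or 569 CPM. Without the cell with most of its UMIs the level was 523 CPM. T cell-like cells of eRT 2 had a UMI in 0.210% of cells, at a median of 1134 UMIs against 2049 in tumor cells. In the tumor cluster led by C1qtnf3 and Fbln2 it stood at 1146 CPM, and in that led by Ctla2a and Npy at 18.2 CPM. Another 4 UMIs lay in 4 immune-like cells of the same tumor. Of the 28 tumor cells with Ccl11, 24 also had Ccl8, and their 10 macrophage markers came to 504.9 CPM against 44.3 CPM in the tumor cells without it, at a median of 5933.5 against 1766 UMIs per cell. The contribution of transcripts from macrophages to these cells was not tested.

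Ccl9 and Ccl6, neighbors on the minus strand that both act on Ccr1 and are known from myeloid cells, had separate main sources. Ccl9 was at 3108, 3028 and 1937 CPM in the osteoclast-like cells of MYC spinal 3, eRT 1 and eRT 3, and was found in 97.9, 96.8 and 80% of them, the last from 10 cells. These cells held 66.3% of all Ccl9 UMIs of MYC spinal 3 and 56.9% of those of eRT 1. After thinning to 500 UMIs, which left out 0 cells, the shares were 70.8, 66.7 and 40%. T cell-like cells, with 14.3% in MYC spinal 3 and 26.3% in eRT 1 before thinning and 7.14 and 2.63% after it, give the background in the same libraries, at medians of 1892 and 2126 UMIs against 4506.5 and 7406.5 in osteoclast-like cells.

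Beyond osteoclast-like cells, Ccl9 was high in unnamed clusters led by Lpl, the gene of lipoprotein lipase. It was at 1681 CPM in the cluster led by Lpl and Fabp5 of MYC spinal 3 and at 1753, 446 and 1013 CPM in the cluster led by Lpl and Hist1h2al of eRT 1, 2 and 3. In monocyte-like cells it ranged from 243 CPM (MYC spinal 2) to 1814 CPM (eRT 2), and in macrophage-like cells from 224 CPM (MYC spinal 1) to 1222 CPM (eRT 2). The monocyte-like and macrophage-like ranges overlapped, with a log2 fold change of -0.42 (SE 0.21) and an adjusted p of 0.491 by edgeR. All 3 osteoclast-like levels lay above the highest level of any tumor in either class, but that of eRT 3 fell to 1504 CPM without the cell that holds 28 of its 86 UMIs. The fibroblast-like cells of MYC spinal 3 were at 1845 CPM, in a cluster that also carries 5 osteoclast markers.

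Ccl6 was at 289.6, 873, 72.3, 278, 1345 and 115 CPM in macrophage-like cells and at 349.9, 447, 121, 414, 1422 and 316 CPM in monocyte-like cells of MYC spinal 1, 2 and 3 and eRT 1, 2 and 3. In neutrophil-like cells it was at 339 (MYC spinal 2), 176 (MYC spinal 3) and 1502 (eRT 2) CPM. The 3 classes overlapped, eRT 2 was highest in each, and osteoclast-like cells, at 9.39, 9.74 and 22.5 CPM, lay below all of them. In both MYC spinal tumors with neutrophil-like cells, the cluster led by Retnlg and Mmp8 held more Ccl6 (537 and 258 CPM) than the less mature cluster led by the granule genes Camp and Ngp (155 and 91.5 CPM).

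Ccl3 and Ccl4 (macrophage inflammatory proteins 1 alpha and 1 beta) differed widely between tumors in neutrophil-like cells. Ccl3 was at 72.4 CPM in the neutrophil-like cells of MYC spinal 2, 323 CPM in those of MYC spinal 3 and 13696 CPM in those of eRT 2. Ccl4 was at 84.8, 326 and 12854 CPM. The cells of eRT 2 stood far above both MYC spinal tumors. Ccl3 was found in 5.93, 27.4 and 89.9% of neutrophil-like cells of MYC spinal 2 and 3 and eRT 2, at medians of 1010.5, 1928 and 1003 UMIs per cell. Thinned to 500 UMIs, which left out 44, 0 and 0 cells, the shares were 2.42, 11.6 and 86.1%. In the same order, T cell-like cells had Ccl3 in 1.63, 3.06 and 13.6% of cells, at medians of 489, 1892 and 1134 UMIs.

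**Figure D3:**
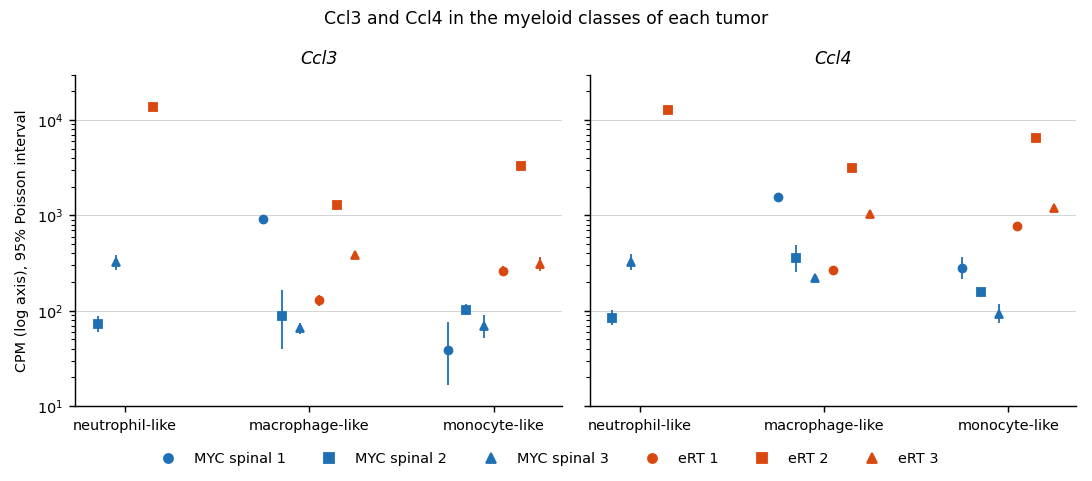
CPM of Ccl3 and Ccl4 in neutrophil-like, macrophage-like and monocyte-like cells of each tumor, on a log axis, with 95% Poisson intervals that cover counting error only. The neutrophil-like cells of eRT 2 lie at 13696 and 12854 CPM, and eRT 2 is the highest tumor in each class.

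eRT 2 was also the highest tumor for Ccl3 and Ccl4 in the other myeloid classes. In monocyte-like cells Ccl3 was at 3294 CPM there and between 38.9 CPM (MYC spinal 1) and 311 CPM (eRT 3) elsewhere. Ccl4 was at 6523 CPM in those cells against 93.2 CPM (MYC spinal 3) to 1195 CPM (eRT 3). Macrophage-like cells had 927, 87.3, 65.3, 129, 1272 and 380.3 CPM of Ccl3 in the order MYC spinal 1, 2 and 3 and eRT 1, 2 and 3. For Ccl4 the values were 1574, 359, 219, 268, 3109 and 1024 CPM. MYC spinal 1 came next to eRT 2 for both. Outside these classes, eRT 2 was highest in tumor cells too, with 162 CPM of Ccl3 against 0 to 22.7 CPM in the other tumors. Ccl4 was at 276 CPM against at most 241 CPM (MYC spinal 2), but 100 of its 172 UMIs in eRT 2 lay in 1 cell. Without the cell richest in Ccl4, the level was 117 CPM in eRT 2, 0 in MYC spinal 2 and 40.5 CPM in eRT 3. T cell-like and NK-like cells of eRT 2 summed held 372 CPM of Ccl3 against 21.9 to 123 CPM. Their Ccl4 was at 640 CPM against 93.2 to 632 CPM. In NK-like cells alone MYC spinal 2 was higher in both, and in T cell-like cells eRT 1 in Ccl4. The part of neutrophil transcripts in these levels was not tested.

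Compared with macrophage-like cells of the same tumor, neutrophil-like cells were higher in Ccl3 and lower in Ccl2, Ccl7, Ccl8 and Ccl12, over the 3 tumors with both (MYC spinal 2 and 3 and eRT 2). The log2 fold change was 2.78 (SE 0.72) for Ccl3, higher in 2 of 3 tumors, with an edgeR adjusted p of 0.0296, and the macrophage-like level of Ccl3 in the tumor where it was not higher was 87.3 CPM. Ccl12 fell by 4.64 on the log2 scale (SE 0.79, edgeR adjusted p = 0.00368), Ccl8 by 3.94 (SE 0.67, 0.00363), Ccl7 by 3.26 (SE 0.69, 0.0112) and Ccl2 by 2.87 (SE 0.67, 0.0186), each lower in 3 of 3. In the macrophage-like cells of MYC spinal 2, 28 of the 32 Ccl12 UMIs lay in 1 cell, and Ccl8 rested on few UMIs, as given above. So 1 of 9 ligands was called higher and 4 lower, where 12% of the 3670 genes tested were called, 7.52% higher and 4.47% lower. The median log2 fold change was -1.88 over the 9 ligands and -0.02 over all genes. Ccl9 (-1.88 (SE 0.58), 0.059), Ccl4 (1.01 (SE 0.75), 0.404), Ccl6 (0.79 (SE 0.49), 0.317) and Ccl5 (-0.13 (SE 0.40), 0.855) did not pass. Without TMM scaling factors the median of all genes moved to -0.80, the share of called genes that were higher went from 62.7 to 15.3%, Ccl9 was called lower as well, and the 5 ligands kept their calls and directions. Without the tumor block 0 were called. Ccl3 lost its call without MYC spinal 3 and at clustering resolutions 0.4 and 1.6, Ccl2 without MYC spinal 2 and at resolution 1.6, and Ccl7 at resolution 1.6.

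Between the tumors, the neutrophil-like cells of eRT 2 were set against those of MYC spinal 2 and 3, with 1 tumor on the eRT side, which the fit assumed to vary like the other group. With 1 residual degree of freedom, the spread behind these p-values was estimated mainly over all genes. Ccl3 was higher by 6.40 (SE 0.88) on the log2 scale (edgeR adjusted p = 1.85e-10) and Ccl4 by 6.24 (SE 0.87) (adjusted p = 3.47e-10). Ccl6 was higher by 2.64 (SE 0.76) (adjusted p = 0.0104) and Ccl7 by 3.29 (SE 1.08) (adjusted p = 0.031). Ccl8 was also called (adjusted p = 0.00752), from 16 UMIs in eRT 2 and 0 and 1 in the MYC spinal tumors, a ratio of 125.1 with a counting interval of 19.4 to 5248. By this fit, with no replicate on the eRT side, 5 of 9 ligands were called higher and 0 lower, where 8.31% of 3765 genes were called, 6.32% higher and 1.99% lower. Ccl3 and Ccl4 were called under each of the 9 settings tried, and the number of ligands called fell to 2 or 3 under 6 of them. The tumor, its type and its mouse strain cannot be told apart here.

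Those cells differed in more than the ligands. In eRT 2 they formed 1 cluster led by S100a8 and S100a9, while the MYC spinal cells lay in the clusters led by Retnlg and Mmp8 and by Camp and Ngp. The 12 neutrophil markers summed to 445160, 297467 and 133235 CPM in MYC spinal 2 and 3 and eRT 2, erythroid markers to 0, 0 and 8827 CPM, and the median mitochondrial share was 0.643, 1.05 and 0.123%. Within the MYC spinal tumors, the Retnlg cluster held more Ccl3 (104 and 488 CPM) than the Camp cluster (42.9 and 154 CPM). With the Camp cluster left out, a choice made after seeing the data, the log2 difference was 5.86 for Ccl3 and 5.64 for Ccl4, both still called.

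Cells with Ccl3 often had Ccl4 as well. In eRT 2, 158 of 208 neutrophil-like cells had both, and Ccl4 was in 84.5% of cells with Ccl3 against 52.4% of the others. In the neutrophil-like cells of MYC spinal 3 the shares were 53.3 and 9.24%. Macrophage-like cells of MYC spinal 1 gave 80.0 and 22.9%, and those of MYC spinal 3 46.9 and 11.9%.

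Ccl4 had a wider distribution than Ccl3. NK-like cells held 667, 1212, 129, 512, 862 and 704 CPM of Ccl4 in MYC spinal 1, 2 and 3 and eRT 1, 2 and 3, and 114, 380.3, 12.9, 56.9, 365 and 32.0 CPM of Ccl3. Ccl4 was the higher of the pair in each tumor. The 191 plasmacytoid dendritic-like cells of MYC spinal 2 were at 1037 CPM of Ccl4 and 24.9 CPM of Ccl3. The macrophage-like to monocyte-like difference of Ccl4 itself differed between tumor types, by -2.68 on the log2 scale (SE 0.51, edgeR adjusted p = 0.0458 for the interaction), being lower in the eRT. It was 1 of 9 ligands called, where 0.738% of 5964 genes were, and it lost the call without MYC spinal 1 or 2 or eRT 1 or 2. The interaction was also fitted for tumor against immune-like, neutrophil-like against macrophage-like, and lymphocytes against myeloid cells. No ligand passed in these comparisons.

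Ccl5 (RANTES), a product of activated T cells and NK cells, was the one ligand higher in lymphocytes than in myeloid cells. T cell-like cells held 3261, 2187, 1332, 3897, 1160 and 293 CPM in MYC spinal 1, 2 and 3 and eRT 1, 2 and 3, and NK-like cells 5572, 3423, 433, 843, 998 and 2433 CPM. The T cell-like and NK-like ranges overlapped, with eRT 3 lowest among T cell-like and MYC spinal 3 among NK-like cells. Macrophage-like cells ranged from 17.9 CPM (eRT 3) to 581 CPM (MYC spinal 1). Mature dendritic-like cells, at 3833 (MYC spinal 2), 3460 (MYC spinal 3) and 8748 (eRT 2) CPM from 10, 20 and 49 cells, were the highest class in each of these tumors.

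With T cell-like and NK-like cells summed and set against macrophage-like and monocyte-like cells of the same tumor, Ccl5 rose by 3.32 (SE 0.63) on the log2 scale (edgeR adjusted p = 0.00351, higher in 6 of 6 tumors). The other ligands called were lower in lymphocytes. These were Ccl2 (-5.98 (SE 0.99)), Ccl7 (-5.97 (SE 0.66)), Ccl12 (-5.59 (SE 0.66)), Ccl8 (-5.10 (SE 0.67)), Ccl6 (-4.51 (SE 0.83)) and Ccl9 (-3.89 (SE 0.69)), each lower in 6 of 6 tumors, and Ccl3 (-2.50 (SE 0.61)), lower in 5 of 6. Adjusted p-values of these 7 ran from 2.06e-04 to 0.0125 by edgeR. Ccl4, which NK-like cells also hold, did not pass (-1.58 (SE 0.72), edgeR adjusted p = 0.134). The 8 called ligands, 1 higher and 7 lower, compare with 28.7% of 6962 genes called, 13.1% higher and 15.7% lower, and the median log2 fold change was -4.51 over the 9 ligands and 0.06 over all genes. Without TMM factors the median of all genes moved to 0.22, and the share of calls that were higher from 45.5 to 58.5%.

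**Figure D4:**
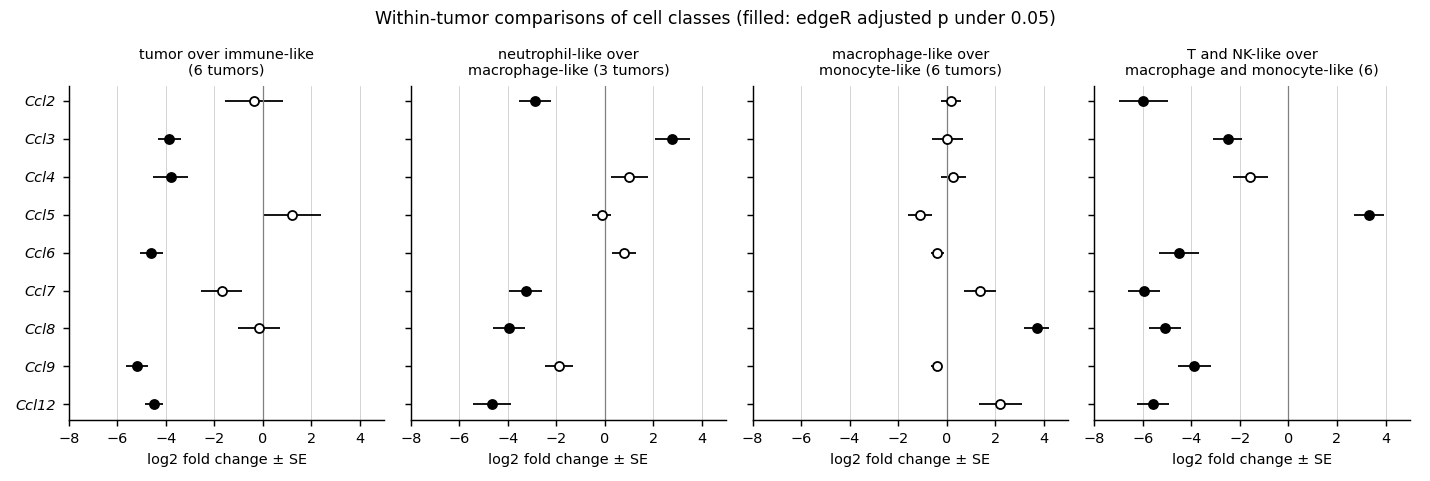
Log2 fold change ± SE of the 9 tested ligands in 4 comparisons of cell classes within tumors, with filled points where the edgeR adjusted p is under 0.05. Ccl5 lies at 3.32 in lymphoid against myeloid cells, where 7 other ligands are filled below 0, and Ccl8 is the filled point in macrophage-like against monocyte-like cells.

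Within T cell-like cells, the cluster with CD8 genes held the most Ccl5 in 5 of 6 tumors, though in MYC spinal 2 and eRT 1 the other clusters were small. In MYC spinal 1 the cluster led by Cd8b1 and Cd8a held 6327 CPM, that led by Tnfrsf4 and Tnfrsf18 1333 CPM and that led by Actn2 13.6 CPM. The CD8 cluster was also the higher in MYC spinal 2 (2651 against 68.7 CPM, the latter from 1 UMI in 14 cells, and 0 UMIs in the 9 cells of the Actn2 cluster). MYC spinal 3 was the exception, with 668 CPM in the CD8 cluster (72 cells) and 6542 CPM in the cluster led by Tnfrsf4 and Tnfrsf18, from 168 UMIs in 9 cells. One of those 9 cells held 96 UMIs, and without it the level was 3067 CPM. In eRT 1, all 404 Ccl5 UMIs of T cell-like cells lay in the 35 cells of the cluster led by Gm8369 and Cd28, and the other cluster there held 3 cells. In eRT 2 and 3, that cluster, with Cd8b1 among its top genes, held 1713 and 676 CPM, and that led by Cxcr6, with Il17a among its top genes, 40.5 and 77.3 CPM. Ccl5 was found in 79.2% of NK-like cells and 47.4% of T cell-like cells of MYC spinal 1, at medians of 1490 and 1803 UMIs per cell. Its 29 B cell-like cells gave 10.3% (95% interval 2.19 to 27.4%), at a median of 2130. Thinned to 500 UMIs with 0 cells left out, the shares were 60.1, 36.9 and 6.90%.

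In tumor cells, 5 of the 9 tested ligands were lower than in the immune-like cells around them, and 0 were higher. Ccl9 fell by 5.18 on the log2 scale (SE 0.45, edgeR adjusted p = 2.55e-05), Ccl6 by 4.60 (SE 0.47, 5.11e-05), Ccl12 by 4.50 (SE 0.36, 1.85e-05) and Ccl3 by 3.86 (SE 0.46, 1.36e-04), each lower in 6 of 6 tumors. Ccl4 fell by 3.80 (SE 0.72, 0.00281) and was lower in 5 of 6. The exception was MYC spinal 2, with 241 CPM in tumor cells against 166 CPM in immune-like cells, from 11 UMIs in 1 cell. All genes together gave 27.3% called of 9580, 12.1% higher and 15.2% lower, and medians of -3.80 over the 9 ligands and -0.03 over all genes. Without TMM factors the median of all genes moved to 0.19 and the share of calls that were higher from 44.4 to 58.4%.

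The other tested ligands differed between tumors by more than the classes did. Ccl2 in tumor cells was at 3.21, 1840 and 895 CPM in the MYC spinal tumors and 55.6, 369.6 and 963 CPM in eRT 1, 2 and 3, against 157, 79.0, 107, 394, 1056 and 707 CPM in immune-like cells. Tumor cells were the higher class in MYC spinal 2, MYC spinal 3 and eRT 3 and the lower in the others, and its log2 fold change of -0.36 (SE 1.204) did not pass (edgeR adjusted p = 0.876). Ccl5 was at 41.7, 1248, 1539, 2100, 466 and 137 CPM in tumor cells of the 6 tumors in the same order. In eRT 1, 978 of its 983 UMIs lay in 1 cell, and without that cell the level was 11.1 CPM. The log2 fold change of Ccl5 was 1.21 (SE 1.19) (adjusted p = 0.505, edgeR), higher in 4 of 6. One of these was eRT 1, whose immune-like cells were at 147 CPM, so its direction turns without that cell.

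**Figure D5:**
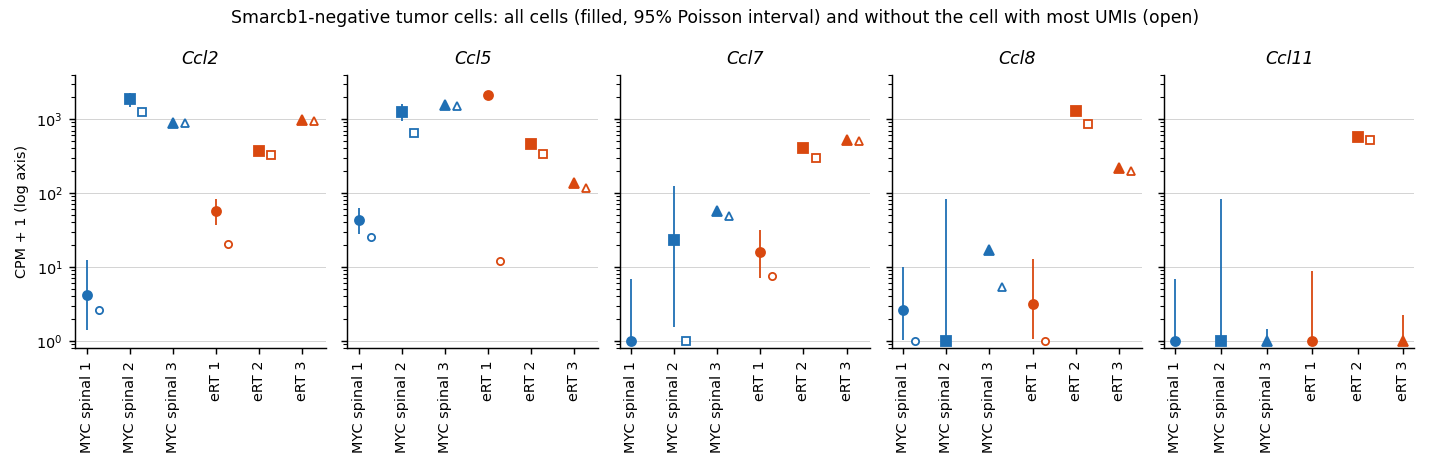
CPM of Ccl2, Ccl5, Ccl7, Ccl8 and Ccl11 in the tumor cells of each tumor, with filled points for all cells and open points without the cell that holds most UMIs of the gene. Ccl5 of eRT 1 drops from 2100 to 11.1 CPM without that cell, while Ccl2 of MYC spinal 3 and eRT 3 hardly moves.

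Ccl2 and Ccl5 of MYC spinal 3 were spread over many tumor cells. Ccl2 was in 471 of 1621 cells, 29.1% (95% interval 26.9 to 31.3%), and Ccl5 in 646 cells, 39.9% (95% interval 37.5 to 42.3%), at a median of 4409 UMIs per cell. After thinning the shares were 13.8 and 19.4%. The osteoclast-like cells of the same library, at a median of 4506.5 UMIs, gave 6.53 and 15.1%, or 0.612 and 2.52% when thinned. The tumor clusters led by Dlk1 and Meg3, by Apod and Klk8 and by Bex1 and Stmn2 held 988, 639 and 18.2 CPM of Ccl2 and 1614, 2562 and 62.2 CPM of Ccl5. Both ligands were lowest in the Bex1 cluster. Tumor cells with Ccl2 carried 267.0 CPM of macrophage markers and those without 162.1 CPM, and for Ccl5 the values were 171.7 and 222.5 CPM.

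In eRT 3, Ccl2 was in 296 of 632 tumor cells (46.8%, thinned 21.8%) and Ccl7 in 220 (34.8%, thinned 14.1%), at a median of 4475.5 UMIs. NK-like and T cell-like cells of that library had Ccl2 in 0 and 0.658% of cells and Ccl7 in 7.69 and 5.26%, at medians of 1113 and 1233. Tumor cells with Ccl2 had 671.1 CPM of macrophage markers and those without 720.4 CPM. For Ccl7 the cells with a UMI were the richer in them, at 882.0 against 570.8 CPM. The same held for Ccl12, Ccl9, Ccl3 and Ccl4, at 2063, 3384, 3612 and 2193 CPM against 427.0, 477.7, 578.5 and 552.9 CPM. The part of macrophage transcripts in these levels was not tested.

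Ccl7 in tumor cells was at 0, 21.9 and 55.8 CPM in the MYC spinal tumors and 15.0, 405 and 527 CPM in the eRT, with eRT 2 and 3 above the rest. Ccl8 had 1, 0 and 1 UMIs in the tumor cells of MYC spinal 1 and 2 and eRT 1, and was at 16.0, 1295 and 218 CPM in MYC spinal 3 and eRT 2 and 3. Without the cell richest in it, the level was 4.42 CPM in MYC spinal 3 and 860.2 CPM in eRT 2. Macrophage-like cells of eRT 2 and 3 held 1156 and 90.8 CPM of Ccl8, less than all tumor cells there, and those of the other tumors held more than their tumor cells. Neither ligand passed against immune-like cells (Ccl7 -1.70 (SE 0.84), edgeR adjusted p = 0.164, and Ccl8 -0.16 (SE 0.85), 0.928). In eRT 2 both followed the tumor cluster led by C1qtnf3 and Fbln2, with 811 against 14.5 CPM of Ccl7 and 2473 against 109 CPM of Ccl8 in the Ctla2a cluster. Ccl2 was at 752 against 0 CPM there. The tumor cells of eRT 2 with Ccl7, Ccl8 or Ccl2 carried 498.2, 414.3 and 537.4 CPM of macrophage markers and those without 50.5, 48.2 and 47.2 CPM, at medians of 5564, 5933.5 and 6096.5 against 1766, 1715 and 1776 UMIs per cell, and the part of macrophage transcripts was not tested. In eRT 3 the Ctla2a cluster was the higher in Ccl2, with 1669 against 870.0 CPM.

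Over all immune-like cells, 4 ligands of the Ccr2 and Ccr8 group were higher in every eRT than in every MYC spinal tumor. Ccl2 was at 394, 1056 and 707 CPM in the eRT and 157, 79.0 and 107 CPM in the MYC spinal tumors. Ccl12 was at 850.5, 449 and 1769 against 313, 5.85 and 183 CPM. The same held for Ccl7 (234, 706 and 1142 against 98.4, 3.74 and 32.8 CPM) and Ccl8 (60.2, 214 and 81.4 against 16.9, 1.79 and 17.2 CPM). Among the 10625 genes tested, the groups did not overlap in 8.08%, with eRT higher in 2.03% and lower in 6.04%. A sum over immune-like cells cannot tell more cells of a type from more transcripts per cell, and macrophage-like cells made up 474 of 1411, 225 of 1733 and 2246 of 2751 of these cells in eRT 1, 2 and 3 and 153 of 1344, 160 of 5396 and 1428 of 3795 in MYC spinal 1, 2 and 3. Unnamed clusters, up to 30.9% of the cells of a tumor (eRT 1), are not in these sums.

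By edgeR's test, 0 of 9 ligands and 0.00% of 10625 genes were called between eRT and MYC spinal immune-like cells, with 417 genes at an unadjusted p under 0.05, while DESeq2 called 45 genes. Ccl2 had a log2 difference of 2.82 (SE 0.52) (unadjusted p = 8.71e-04, adjusted p = 0.999 over all genes by edgeR), and DESeq2 called it together with Ccl7 and Ccl8. In macrophage-like cells alone, edgeR also called 0 of 9 ligands and 0.00% of 7273 genes (163 at an unadjusted p under 0.05, and 8 genes by DESeq2). There the groups did not overlap for 0 of the 10 ligands, against 5.99% of genes, 2.57% higher and 3.42% lower in eRT. The largest log2 differences of macrophage-like cells were 2.71 (SE 0.88) for Ccl8 and 2.18 (SE 0.86) for Ccl7, both toward the eRT.

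The other CC ligands and the CC receptors form a list, of which 26 genes are reported. Of these, 8 (Ccl19, Ccl20, Ccl21a, Ccl21b, Ccl21c, Ccl26, Ackr2 and Ackr4) are in no table. Ccr1 (median 184.1 CPM over 6 tumors) was highest in macrophage-like cells, and Ccr2 (296.7 CPM) in monocyte-like cells. In neutrophil-like cells of eRT 2, Ccr1 reached 759.0 CPM and the atypical receptor Ccrl2 3600 CPM, and both were higher than in the MYC spinal tumors (log2 3.31, SE 0.79, edgeR adjusted p = 0.00106, and 6.03, SE 0.84, adjusted p = 2.92e-10), 2 of the 3 genes of the list tested there, with 1 tumor on the eRT side as above. Ccl17 (median 876.0 CPM), Ccl22 (857.4 CPM) and Ccr7 (1445 CPM) were highest in mature dendritic-like cells, the cells that also led in Ccl5.

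Of the 7 genes of this list tested in tumor against immune-like cells, 1 was higher and 4 lower, beside 27.3% of all genes called. Ccl27a was higher by 2.37 on the log2 scale (SE 0.36, edgeR adjusted p = 0.000729), at a median of 22.7 CPM in tumor cells, though the genome holds near-identical copies of this gene and its counts are uncertain. Ccr2 fell by 5.58 (SE 0.59), Ccr7 by 5.03 (SE 0.47), Ccr1 by 4.71 (SE 0.43) and Ccrl2 by 4.30 (SE 0.42), with edgeR adjusted p-values from 2.79e-05 to 5.79e-05. Against macrophage-like cells, neutrophil-like cells were higher in Ccr1 (1.80, SE 0.47, edgeR adjusted p = 0.0310) and lower in Ccr2 (-2.31, SE 0.66, adjusted p = 0.0454), 2 of 4 tested, beside 12% of all genes. Against myeloid cells, lymphocytes were higher in Ccr7 (3.16, SE 0.62) and lower in Ccr1 (-4.08, SE 0.38), Ccrl2 (-2.85, SE 0.20) and Ccr2 (-0.72, SE 0.23), 4 of 5 tested beside 28.7% of all genes, with edgeR adjusted p-values from 3.74e-05 to 0.0442. In macrophage-like against monocyte-like cells, and in macrophage-like cells between tumor types, 0 of 5 passed, and in all immune-like cells 0 of 13.

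Over 54 sums of 13 named cell classes, each log2(CPM + 10), every ligand has genes that vary with it. Pearson's r is given as a description, since sums of 1 tumor share a library and its depth. Ccl12 was most like C1qc (0.891), Ms4a7 (0.887) and C1qb (0.879), and Ccl7 most like Pf4 (0.831), Apoe (0.747) and C1qc (0.745), all known from macrophages. Ccl9 was most like Clec4a2 (0.857), Atp6v0b (0.842) and Csf1r (0.833), and Ccl6 most like Emilin2 (0.856), Wfdc17 (0.855) and Sirpb1c (0.840). For Ccl3 the genes were Hcar2 (0.812), Plek (0.784) and Ccrl2 (0.767), for Ccl4 Plek (0.784), Srgn (0.766) and Map3k8 (0.735), and for Ccl5 H2-Q7 (0.717), H2-Q6 (0.713) and Stat4 (0.690). Ccl2 was most like Hmox1 (0.755), Lrp1 (0.745) and Ecm1 (0.728), and Ccl8, with lower values, like Jun (0.636), Rnase4 (0.632) and Cxcl13 (0.599). Ccl11 had UMIs in 5 of the 54 sums, and its values (Npy 0.537, Postn 0.512 and Lgals7 0.506) rest on these. Among the ligands themselves, Ccl7 and Ccl12 (0.825) and Ccl3 and Ccl4 (0.824) were the most alike, followed by Ccl7 and Ccl8 (0.783) and Ccl2 and Ccl7 (0.745).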

How the data were processed

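Single-cell libraries of 3 MYC spinal tumors and 3 eRT were made with 10x Genomics 3′ chemistry from Accutase-dissociated, 7-AAD-sorted live cells. Per the submitters' processing notes, the authors aligned reads to mm10 with Cell Ranger 2.0.2, and deposited whole-number UMI counts per gene and cell, not normalized, with genes found in at least 3 cells of a tumor. Groups follow the tissue given in the labels, and 0 columns of per-sample values stayed unused.

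The filter on cells asked for 200 genes or more and a mitochondrial share of 25% or less. Tumors of each type were integrated with Seurat 5.3.0 anchors on 2000 variable genes, CC ligands and receptors left out, and clustered on 30 dimensions with 20 neighbors at resolution 0.8. A cluster got a name from 3 or more markers of a type, each present in 10% or more of its cells and enriched by a log2 fold of 1 or more, and was taken as tumor when it held under 0.25 of the expected Smarcb1 UMIs with at least 10 expected. Scrublet called 21 doublets (0.0948% of cells), so the caller did not work and cells were kept, while an alternative dropped the 843 highest scores.

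UMIs were summed per tumor and class of at least 10 cells and tested in R 4.3.3 with edgeR 4.0.16 (TMM factors, filterByExpr, quasi-likelihood test, two-sided, Benjamini-Hochberg adjustment at 0.05 over all genes tested). A standard error is the fold change divided by the root of F. Classes compared within tumors were paired by tumor because they come from the same animal. Deviations of the paired classes from the class means correlated at 0.278 to 0.731 within tumors. The p-values measure the spread between the tumors compared, each a separate animal. These were 6 tumors, or 3 where neutrophil-like cells were compared. For neutrophil-like cells between tumor types, with 1 residual degree of freedom, the spread was estimated mainly over all genes. The procedure was also run on simulated counts. For classes compared within tumors these held no differences between tumors, so they cannot show how the pairing performs. Intervals are exact Poisson for CPM and exact binomial for shares, at 95%. Promoters and their starts are from RefSeq and gene positions from GENCODE.

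The text names the 10 ligands in every comparison, the genes of a list of other CC ligands and CC receptors that pass or lead, and the 3 genes most like each ligand. One gene of that list is not reported here. The members, lists and marker sets were chosen with earlier results of these data known. Alternatives were no TMM factors, DESeq2 1.42.0, no filter on genes, stricter cell filters (500 genes or more, mitochondrial share of 10% or less), resolutions 0.4 and 1.6, at least 30 cells per sum, removal of high Scrublet scores, no replicate block, Smarcb1 limits of 0.15 and 0.5, strain as a covariate and each tumor left out. Figures and annotation used Python 3.11.15 with numpy 2.4.6, pandas 2.3.3 and scipy 1.17.1, and Scrublet ran in scanpy 1.11.5.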

Additional observations from a re-analysis of the deposited data

Results flagged for a closer look

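The difference of Ccl4 between macrophage-like and monocyte-like cells was not the same in the 2 tumor types. The interaction of class and tumor type was -2.68 on the log2 scale (SE 0.51, edgeR adjusted p = 0.0458), and 44 of 5964 genes passed this test. No ligand passed the same interaction in the other class comparisons, as given above. Macrophage-like and monocyte-like levels were 1574 and 282 CPM in MYC spinal 1, 359 and 156 CPM in MYC spinal 2 and 219 and 93.2 CPM in MYC spinal 3. In the eRT they were 268 and 779 CPM (eRT 1), 3109 and 6523 CPM (eRT 2) and 1024 and 1195 CPM (eRT 3). Macrophage-like cells were the higher class in 3 of 3 MYC spinal tumors and the lower in 3 of 3 eRT. In monocyte-like cells of MYC spinal 1, 43 of 58 Ccl4 UMIs lay in 1 cell, and the level without it was 74.2 CPM. That class carried 2673 CPM of T cell markers, and the monocyte-like cells of eRT 1 and 3 carried 14002 and 13482 CPM of macrophage markers. The part of this mixing in the interaction was not tested. Leaving out 1 tumor at a time gave -3.16 to -2.18, and the adjusted p rose to 0.0521 without MYC spinal 1, 0.0878 without MYC spinal 2, 0.235 without eRT 1 and 0.148 without eRT 2. Without TMM factors it was 0.0398 and by DESeq2 0.0013. Different clusters hold the monocyte-like cells of the 2 tumor types, led by Wfdc17 and F13a1 or by Mki67 in MYC spinal tumors and by Thbs1 and Cxcl3, Rsad2 and Cxcl10 or Chil3 and Ifitm6 in eRT.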

How the results depend on the processing

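Of 887 log2 fold changes of single ligands under alternatives, 803 kept direction and call, 34 lost and 14 gained the call, and 36 changed sign, 0 of them among the 24 that had been called. Of 99 counts of called ligands, 82 stayed within 1.5 times. Without the replicate block (no pairing by tumor), the ligands called were 3 in tumor against immune-like cells, 0 in neutrophil-like against macrophage-like and 0 in macrophage-like against monocyte-like cells, and the changed signs were Ccl2 at 0.36 and Ccl8 at 2.10 in the first, and Ccl2 at -0.18, Ccl3 at -0.70 and Ccl4 at -0.63 in the last. For eRT against MYC spinal tumors, no paired analysis was possible because the tumors come from different animals.

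In tumor against immune-like cells, 3 ligands were called at a Smarcb1 limit of 0.5, which takes in the MYC spinal neutrophil-like clusters, and Ccl8 was at 0.032 without TMM factors. With every gene kept, Ccl11 was called too, although all its UMIs lay in eRT 2. In neutrophil-like against macrophage-like cells, 2 were called at resolution 1.6, where Ccl5 was at 0.017, and Ccl6 was at -0.015 without TMM factors. In macrophage-like against monocyte-like cells, 4 were called with every gene kept, where Ccl3 was at -0.0075, and Ccl2 was at -0.16 and Ccl3 at -0.17 at resolution 0.4. For eRT against MYC spinal neutrophil-like cells, 3 were called without TMM factors (Ccl2 at -0.20), by DESeq2, with every gene kept and without high Scrublet scores, and 2 with the stricter cell filter (Ccl5 at -0.063) and without the Camp and Ngp cluster (Ccl12 at 0.018, an alternative chosen after seeing the data). In all immune-like cells DESeq2 called 3. With the strain as a covariate, Ccl3, Ccl4 and Ccl6 were at -1.60, -1.52 and -0.59 in macrophage-like cells, and Ccl3 and Ccl6 at -0.25 and -0.038 in all immune-like cells. The cause of these changes was not tested.

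Leaving out 1 tumor gave 0 to 1 called ligands in macrophage-like against monocyte-like cells. Ranges that crossed 0 were -1.23 to 0.44 (Ccl2) and -1.0004 to 0.53 (Ccl8) in tumor against immune-like cells, -0.021 to 2.12 (Ccl4) and -0.34 to 0.19 (Ccl5) in neutrophil-like against macrophage-like cells, and -0.25 to 0.39 (Ccl2), -0.60 to 0.44 (Ccl3) and -0.22 to 0.69 (Ccl4) in macrophage-like against monocyte-like cells. Between tumor types they were -2.92 to 0.44 (Ccl5), -0.91 to 1.73 (Ccl6) and -0.38 to 3.10 (Ccl3) in macrophage-like cells, and -2.90 to 1.58 (Ccl5) and -0.23 to 3.43 (Ccl9) in all immune-like cells. Leaving out tumors, or the strain as a covariate, could not be run for neutrophil-like cells between tumor types.

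The number of genes called over all genes moved in macrophage-like against monocyte-like cells, from 13 to 135 by DESeq2, 534 with every gene kept, 29 with the stricter cell filter, and 20 and 40 at resolutions 0.4 and 1.6, and to 0 without MYC spinal 3, eRT 1, eRT 2 or the block. In all immune-like cells between tumor types it went from 0 to 45 by DESeq2. In neutrophil-like against macrophage-like cells it went from 440 to 1134 without TMM factors, 730 with every gene kept, 216 at resolution 1.6 and 45 without the block. Of 790 shares of cells with a UMI, 500 left their counting interval when cells were thinned to 500 UMIs.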
